A study of Homo sapiens with 6 samples.

Results

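Reads from chromatin immunoprecipitation of PARP1 followed by sequencing (ChIP-seq) were compared between 30 min and 5 min of progestin in T47D-MTVL cells. The comparison covers 263610 autosomal windows of 10 kb, out of 303641 windows in the whole table. A window was kept where the mean over the 6 libraries of the series was at least 10 reads. Kept windows were also summed to 26229 segments of 100 kb and 2679 blocks of 1 Mb. T47D-MTVL is a line derived from T47D human breast cancer cells that carries an integrated reporter driven by the promoter of mouse mammary tumour virus. All cells were kept in hormone-depleted serum and then without serum before fixation with formaldehyde. The libraries compared were PARP1 at 30 min and at 5 min of 10 nM R5020, a synthetic progestin. CDK2 at the same times, and PARP1 and CDK2 at 0 min without hormone, are set beside them. Each antibody and time had 1 library, so no value below has an error between replicates, and a difference between 2 libraries is not shown to be a difference between conditions. The labels do not say whether libraries of the same time came from the same cells. No library of the series is an input or a control antibody. A PARP1 or CDK2 level below is therefore read coverage, and its part due to binding was not measured.

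PARP1 is an abundant nuclear enzyme that binds nucleosomes and DNA ends and, when active, attaches chains of ADP-ribose to histones, to other chromatin proteins and to itself. These chains loosen chromatin, and PARP1 that carries them can leave DNA. In breast cancer cells the progesterone receptor acts together with kinases, among them the cyclin-dependent kinase CDK2, which the study linked to the activation of PARP1.

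The PARP1 libraries held 63448449 reads at 30 min and 58495554 at 5 min, and every level was therefore scaled to 1000000 reads per library (RPM). A median block had 3.49 RPM per window at 30 min and 3.46 at 5 min. All ratios are shares of reads at 30 min over shares at 5 min, so a lower share in one place cannot be told apart from a higher share elsewhere. Neighbouring windows differed by more than counting error allows. The variance between them was 8.62 times the Poisson value in PARP1 at 30 min, 11.4 times at 5 min and 6.11 times at 0 min, and 24 times in CDK2 at 30 min, 52.2 times at 5 min and 7.43 times at 0 min. The 95% intervals of chromosomes, regions, blocks and segments were widened by these dispersions, and they cover no variation between cultures. The minimum of 10 reads removed 24503 of the 288113 autosomal windows in the table. The 294 windows just inside it, with means of 10 to 12 reads, had a summed ratio of 1.00, and the 299 just outside, with means of 8 to 10, had 1.06.

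The share of PARP1 reads tended to be lower at 30 min than at 5 min on gene-dense chromosomes and slightly higher on gene-poor ones. Ratios ran from 0.951 to 1.02, with exceptions given below. Chromosomes 19, 22, 17, 16 and 20 had the 5 lowest ratios of the 22 autosomes, and chromosomes 13 and 4 the highest. The widened interval lay below 1 on 8 autosomes, above 1 on 6 and included 1 on the other 8. Under scaling on the windows of lowest mean these counts were 10 below and 2 above. Protein-coding genes were counted per chromosome in the RefSeq table of GRCh38.p14. Chromosome 19 had 26.4 of them per covered Mb, the most of all autosomes, and chromosome 13 had 3.55, the fewest.

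Chromosome 19 held 1.25% of PARP1 reads at 30 min and 1.32% at 5 min, a ratio of 0.951 (widened 95% interval 0.942–0.961). On chromosome 22 the ratio was 0.954 (0.942–0.966). Chromosomes 17 and 16, both at 0.972, and chromosome 20, at 0.973, formed the next group, with no interval reaching above 0.981. At the other end, chromosome 13 held 3.02% of reads at 30 min and 2.95% at 5 min, a ratio of 1.02 (1.02–1.03). Chromosome 4 also had 1.02 (1.01–1.02). Chromosome 18 is gene-poor too, with 3.64 genes per covered Mb, yet its ratio was 1.00 (0.994–1.01). Chromosomes 11 and 1, with 9.99 and 9.36 genes per covered Mb, had ratios of 0.994 and 0.998. Both are denser in genes than chromosome 20, which had 9.04. Chromosome 10 had only 5.73 genes per covered Mb, yet a ratio of 0.991. Over the 22 autosomes, genes per covered Mb and the log2 ratio had a Pearson correlation of -0.85 and a Spearman correlation of -0.82, and the Pearson value was -0.86 without chromosome 19. The chromosomes share both libraries, and their base composition was not analysed here.

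**Figure D1:**
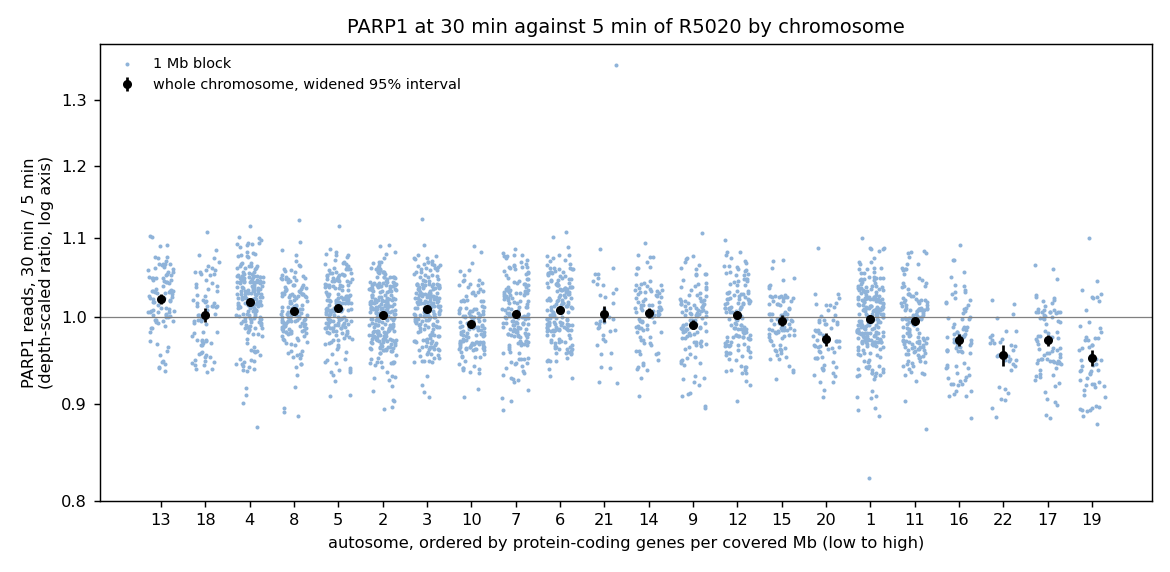
PARP1 reads at 30 min over 5 min of R5020 (depth-scaled ratio, log axis) for each autosome, ordered from few to many protein-coding genes per covered Mb. Blue points are 1 Mb blocks and black points whole chromosomes with widened 95% intervals. Chromosome 13 on the left lies at 1.02 and chromosome 19 on the right at 0.951, while blocks within a chromosome spread more widely than the chromosomes do.

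Set beside cells without hormone, the 30 min level lay between the other levels on these chromosomes. Of all PARP1 reads, chromosome 19 held 1.15% at 0 min, 1.32% at 5 min and 1.25% at 30 min. Chromosome 22 held 0.740%, 0.846% and 0.807% at these times. Chromosome 4 ran the other way, with 5.13% at 0 min, 4.86% at 5 min and 4.94% at 30 min. Thus the library at 5 min stood farther from 0 min than the library at 30 min did, on both kinds of chromosome. The ratios of 5 min and of 30 min to 0 min share libraries with each other and with the ratio of 30 to 5 min, so they are set side by side only.

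Smaller regions divided chromosomes further. They, their limits in hg19 and their class were set from general knowledge of the genome, with earlier results of these data known, and not looked up in an annotation. The long arms of chromosomes 13 and 22 and the arms of chromosome 17 cover nearly all of chromosomes already described, and they restate those values. All 15 gene-dense regions had a PARP1 ratio below 1, from 0.903 to 0.974, and the widened interval lay below 1 in 14 of them. The 6 regions classed as gene-poor had a widened interval above 1, with ratios from 1.02 to 1.05. Chromosome 18, gene-poor as a whole but not placed in that class, did not follow them, with the ratio of 1.00 given above. CDK2 was above 1 in all 15 gene-dense regions and in 0 of the 6 gene-poor ones.

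Among gene-dense regions the end of the long arm of chromosome 8, band 8q24.3 (chr8:143000001-146000000), was the lowest. It had 4.44 RPM per window at 30 min and 4.91 at 5 min, a ratio of 0.903 (0.876–0.932), while CDK2 stood at 1.56. The band 11p15.5 (chr11:180001-3000000), known for its imprinted genes, had 2.26 RPM per window at 30 min and 2.48 at 5 min, a ratio of 0.911 (0.871–0.951). In 16p13.3 (chr16:80001-5000000) the ratio was 0.916 (0.892–0.942), in 19p13 (chr19:250001-19000000) 0.921 (0.905–0.937), and in 9q34 (chr9:130000001-141000000) 0.924 (0.910–0.938). These are the outer ends of their chromosomes, with levels that differ from each other, since 9q34 had 4.70 RPM per window at 30 min and 19p13 had 2.18. The single gene-dense region whose interval included 1 was 11q13 (chr11:65000001-67000000), an interior band, with 0.974 (0.934–1.01).

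Gene-poor regions lay on the other side of 1 and nearer to it. The band 16q21 (chr16:60000001-66000000) had 2.40 RPM per window at 30 min and 2.28 at 5 min, a ratio of 1.05 (1.02–1.09), with CDK2 at 0.832. On the same chromosome the gene-dense end, 16q24 (chr16:85000001-90000000), had 5.27 RPM per window at 30 min and 5.61 at 5 min, a ratio of 0.939 (0.919–0.960). Chromosome 16 as a whole therefore joins regions of both directions.

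Chromosomes 21 and 4 were divided in the same way. The gene-poor part of chromosome 21 (chr21:14330001-31000000) had a ratio of 1.03 (1.01–1.04) and the gene-dense part (chr21:32000001-48000000) 0.970 (0.957–0.984), while the whole chromosome had 1.00 (0.994–1.01). On chromosome 4 the ratio was 1.05 (1.03–1.07) in chr4:58000001-70000000, 1.03 (1.02–1.04) in chr4:86000001-186000000, and 0.930 (0.902–0.958) in the gene-dense band 4p16.3 (chr4:10001-4000000). The gene-poor interior of chromosome 5 (chr5:82000001-127000000) had 1.03 (1.02–1.04). A region of high coverage, 3q26 to q29 (chr3:165000001-197910000), had 9.04 RPM per window at 30 min and 8.93 at 5 min, and its ratio was close to 1, at 1.01 (1.01–1.02). Its coverage was high for both antibodies before hormone, with 9.01 RPM per window for PARP1 and 9.05 for CDK2.

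Gene families that lie in clusters did not follow one pattern. Zinc finger proteins of the KRAB class, mostly repressors of transposable elements, fill a pair of stretches on chromosome 19. The stretch in 19q13.4 (chr19:52000001-59000000) had a ratio of 0.955 (0.929–0.982). The stretch in 19p12 (chr19:20000001-24500000) had 1.84 RPM per window at 30 min and 1.86 at 5 min, a ratio of 0.993 (0.954–1.03). Its interval does not meet that of 19p13. It does overlap those of 19q13.4 and of the gene-dense 19q12 to q13.3, which had 0.959 (0.945–0.974). Olfactory receptor genes, silent in most tissues, gave ratios of 0.993 to 1.01 in 3 clusters, each with an interval that included 1. The same held for the histone genes of 6p22, at 0.984 (0.948–1.02), and for the major histocompatibility complex, which holds antigen-presenting genes, at 0.985 (0.959–1.01).

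HOX genes, the homeobox regulators of body position, had ratios on both sides of 1 in their 4 clusters. The HOXB cluster (chr17:46600001-46900000) had 9657 reads at 30 min and 10327 at 5 min, a ratio of 0.862 (0.790–0.941), the lowest of all 37 regions, with CDK2 at 1.38. HOXC had 6789 and 5737 reads at these times, a ratio of 1.09 (0.975–1.22). HOXD had 1.06 (0.901–1.24) and HOXA 1.03 (0.923–1.14), so the widened interval left out 1 in HOXB alone. CDK2 was above 1 in all 4 clusters. They hold only 20 or 30 windows each, and whether HOXB differs from the others was not tested. The interval of HOXB overlaps those of HOXA and HOXD but not that of HOXC.

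**Figure D2:**
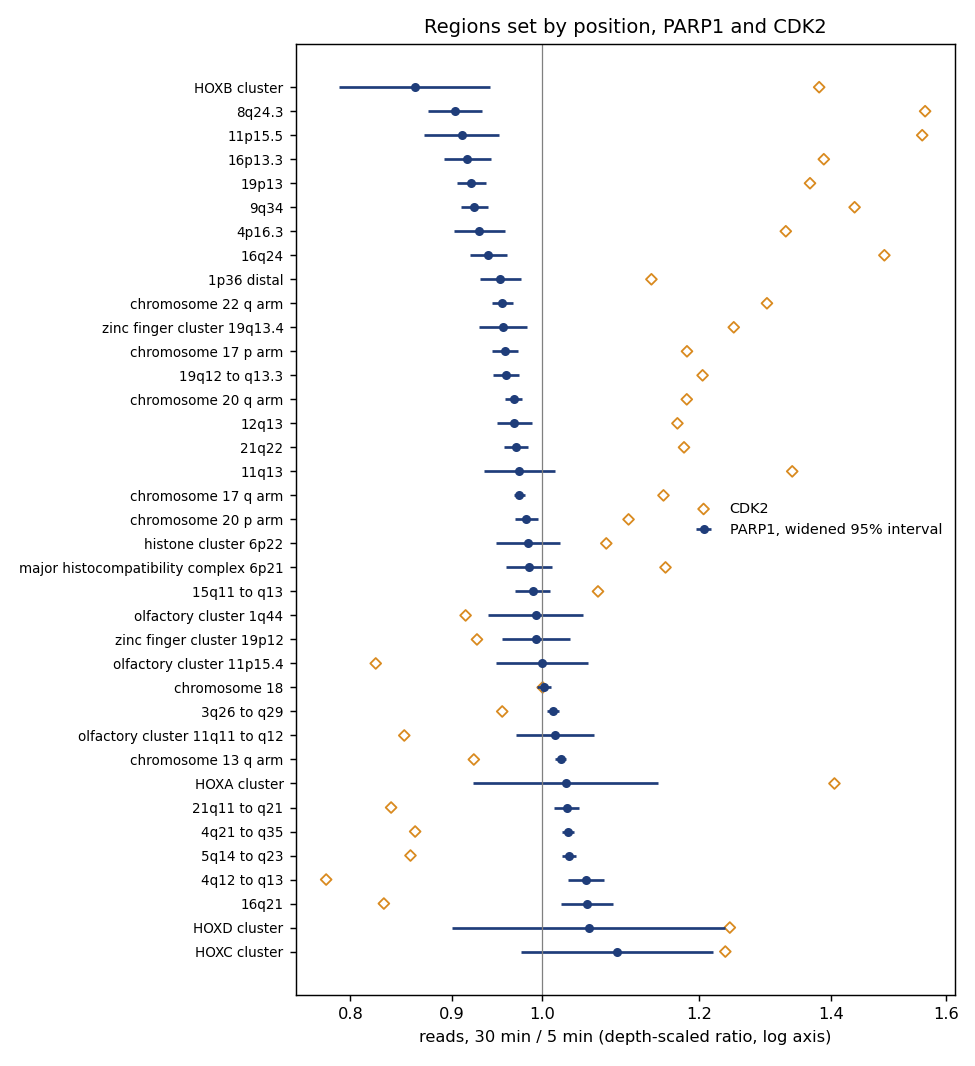
Reads at 30 min over 5 min (depth-scaled ratio, log axis) in 37 regions, sorted by the PARP1 ratio. Blue points with bars are PARP1 with widened 95% intervals, and open diamonds are CDK2. Gene-dense ends of chromosomes such as 8q24.3 (PARP1 0.903, CDK2 1.56) and gene-poor regions such as 16q21 (PARP1 1.05, CDK2 0.832) lie towards opposite ends.

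Distance from the end of the covered sequence gave a graded series. The summed PARP1 ratio was 0.952 (0.946–0.959) in windows less than 2 Mb from an end, 0.963 (0.957–0.968) at 2 to 5 Mb and 0.986 (0.982–0.990) at 5 to 10 Mb. It was 0.994 (0.992–0.997) at 10 to 20 Mb, 1.00 (1.00–1.01) at 20 to 50 Mb and 1.01 (1.01–1.02) beyond 50 Mb. CDK2 gave the reverse series, 1.25, 1.2, 1.08, 1.03, 0.987 and 0.934 over the same distances. The ratio of PARP1 thus was lower the nearer windows lay to an end, and that of CDK2 higher. Short arms of the 5 acrocentric chromosomes are hardly covered, so their first windows lie near centromeres. Of the other 39 ends of 2 Mb, 37 had a PARP1 ratio below 1, with the widened interval below 1 at 23 and above 1 at 0. Of all 2679 blocks of 1 Mb, which are shorter than these ends, 7.47% had the interval below 1 and 6.01% above. The first 2 Mb of chromosome 11 had 0.895 (0.847–0.945), and the last 2 Mb of chromosome 8 had 0.899 (0.865–0.934). Chromosome ends are also gene-dense, and position and gene density were not separated.

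Blocks of 1 Mb were counted as past the limit where the ratio was 1.1 or more, or its reciprocal or less, and the widened interval left out 1. Of 2679 blocks, 53 were lower at 30 min, 1.98% of those compared, and 15 were higher, 0.56%. The split depended on the scaling, with 60 lower and 8 higher under TMM, a trimmed-mean scaling, and 65 lower and 7 higher where libraries were scaled on their shallowest windows. The ratios lay between 0.823 and 1.36 around a median of 1.00, with 0.932 at the 5th and 1.07 at the 95th percentile. The standard deviation of the log2 ratio was 0.060, against a median widened counting error of 0.046. Adjacent blocks resembled each other, with a Pearson correlation of 0.52 and a Spearman correlation of 0.50 over 2627 pairs, which share both libraries and lie in the same local sequence.

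The lower blocks were spread over 17 chromosomes, among them 10 of the 57 blocks compared on chromosome 19, 4 of 34 on chromosome 22, 5 of 79 on chromosome 17 and 7 of 225 on chromosome 1. The block chr17:80000001-81000000 had 28954 reads at 30 min and 30198 at 5 min, a ratio of 0.884 (0.840–0.930). In chr8:144000001-145000000 there were 29232 reads at 30 min and 30264 at 5 min, a ratio of 0.890 (0.846–0.937), and the block beyond it had 0.887 (0.836–0.941). Further blocks had 0.875 (0.817–0.938) in chr4:7000001-8000000, 0.873 (0.809–0.941) in chr11:1000001-2000000 and 0.878 (0.816–0.944) in chr19:5000001-6000000. Each of these blocks was lowest at 0 min and highest at 5 min. In the block of chromosome 17 the level was 3.95 RPM per window at 0 min, 5.16 at 5 min and 4.56 at 30 min. Over all 53 lower blocks the median level was 2.35 RPM per window at 0 min, 2.82 at 5 min and 2.55 at 30 min. In 51 of the 53 the 30 min level lay between the others, against 1878 of all 2679 blocks. The 53 were chosen for a share at 5 min above that at 30 min, which by itself favours a peak at 5 min. These counts are therefore set side by side only.

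The lowest ratio of all blocks, 0.823 (0.759–0.891), belonged to chr1:1-1000000. There 73.3% of the PARP1 reads at 30 min lay in 2 windows, and without the 2 of highest mean the ratio was 0.856. The deepest, chr1:560001-570000, had 7886 PARP1 reads at 30 min and 8954 at 5 min, a ratio of 0.812 (0.751–0.879). CDK2 was also lower in it, with 38315 reads at 30 min and 69604 at 5 min. A deep window on another chromosome, chr5:134260001-134270000, had similar ratios, 0.825 (0.738–0.922) for PARP1 and 0.830 for CDK2. It too held more CDK2 than PARP1 reads, 27840 against 4461 at 5 min.

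The higher blocks came from 11 chromosomes, among them 3 of the 187 blocks compared on chromosome 4, 2 of 168 on chromosome 6 and 2 of 96 on chromosome 13. The block chr5:24000001-25000000 had 23124 reads at 30 min and 19110 at 5 min, a ratio of 1.12 (1.05–1.19). In chr8:116000001-117000000 there were 40906 reads at 30 min and 33544 at 5 min, a ratio of 1.12 (1.07–1.18). The second of these stood above 0 min as well, with 6.25 RPM per window at 0 min, 5.73 at 5 min and 6.45 at 30 min. Other higher blocks were chr4:107000001-108000000, with 1.12 (1.04–1.2), and chr1:191000001-192000000, with 1.1 (1.04–1.16). Over all 15 the median level was 3.15 RPM per window at 0 min, 2.71 at 5 min and 3.0 at 30 min, a dip at 5 min where the lower blocks had a peak. Both sets were chosen by the ratio of 30 to 5 min, which by itself favours such a dip or peak. The 30 min level lay between the others in 11 of the 15.

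Single windows carried 2 of the higher blocks. Without the 2 windows of highest mean in each block, 10 blocks were past the limit on the higher side, and 13 without the 1% of windows of highest mean. The highest ratio, 1.36 (1.26–1.46), was that of the block on chromosome 21 that ends at base 10000000, with 16964 reads at 30 min and 11523 at 5 min. In it 66.3% of the PARP1 reads at 30 min lay in 2 windows, and without the 2 of highest mean the ratio was 0.953. In chr19:27000001-28000000 the ratio was 1.1 (1.04–1.17) with 80.9% of the reads in 2 windows, and 0.971 without the 2 of highest mean. Away from those windows neither block was higher at 30 min.

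**Figure D3:**
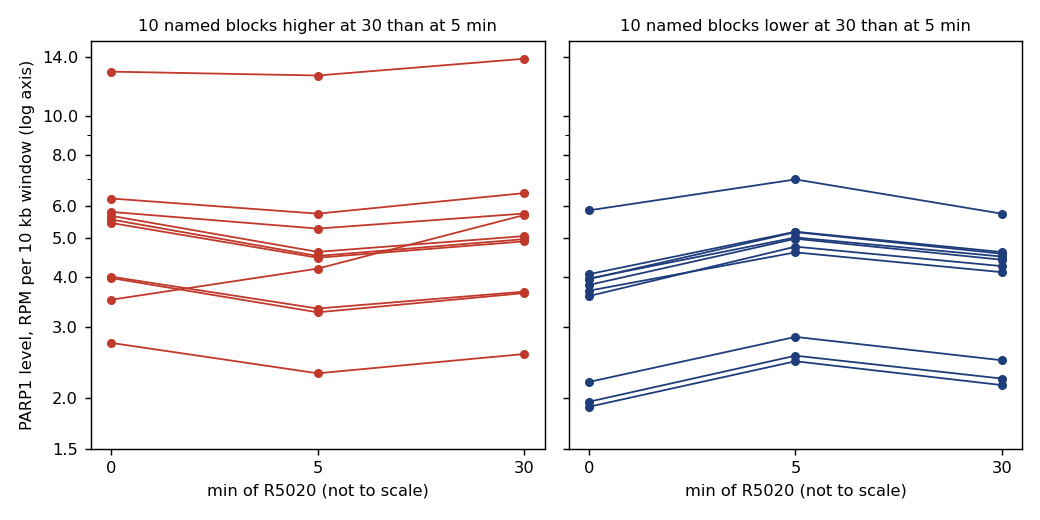
PARP1 level (RPM per 10 kb window, log axis) at 0, 5 and 30 min in the 10 blocks of 1 Mb with the widened bound farthest above 1 (left) and farthest below 1 (right) for 30 against 5 min. Each line is 1 block with 1 library per time, and the choice by 30 against 5 min favours a peak or a dip at 5 min. Every block on the right is highest at 5 min, and 9 of the 10 on the left are lowest at 5 min, while the block of chromosome 21 is higher at each later time and reaches 5.69.

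For 30 against 5 min, CDK2 gave an opposite map. Its ratio of 30 to 5 min comes from other libraries and shares none with that of PARP1. On chromosome 22 the CDK2 ratio was 1.3 (1.26–1.33) and on chromosome 19 it was 1.23 (1.21–1.26), whereas it was 0.909 (0.899–0.918) on chromosome 4 and 0.924 (0.911–0.937) on chromosome 13. On chromosome 19 PARP1 had 2.09, 2.40 and 2.28 RPM per window at 0, 5 and 30 min, and CDK2 had 2.14, 2.09 and 2.58. On chromosome 13 PARP1 had 3.26, 3.10 and 3.17, and CDK2 had 3.25, 3.33 and 3.08. At 30 min both antibodies thus stood above 0 min on chromosome 19 and below it on chromosome 13. PARP1 and CDK2 lay on opposite sides of 1 on 21 of 22 autosomes, a tally that was 15 under TMM, 16 under median-of-ratios and 11 under scaling on the windows of lowest mean, which shifted CDK2 by -0.18 on the log2 scale. The following counts in blocks, 52 and 14, were the same under these 3 scalings. CDK2 was above 1 in 52 of the 53 blocks lower for PARP1, with a median of 1.43, against 1331 of all 2679 blocks (49.7%). It was below 1 in 14 of the 15 blocks higher for PARP1, with a median of 0.834, against 1348 of all blocks (50.3%). The exceptions were chr1:1-1000000, with a CDK2 ratio of 0.812, and the block of chromosome 21 just described, with 1.55.

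Over the 2679 blocks the log2 ratios of PARP1 and CDK2 had a Pearson correlation of -0.69 and a Spearman correlation of -0.70. Without these 2 blocks the Pearson value was -0.71. It was negative within each of the 22 autosomes, from -0.77 on chromosome 12 to -0.16 on chromosome 21. In the fifth of blocks with the lowest CDK2 ratio the median ratio was 1.04 for PARP1 and 0.799 for CDK2, and in the fifth with the highest it was 0.957 for PARP1 and 1.28 for CDK2. The blocks share the depth, mappability and base composition of their sequence, and the part of the higher dispersion of CDK2 at 5 min in this relation was not tested.

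**Figure D4:**
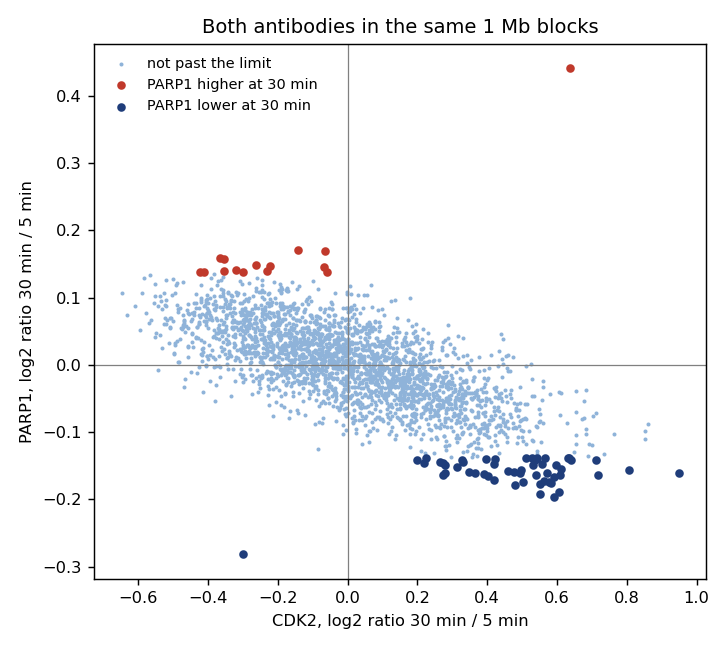
Log2 ratio of 30 to 5 min for PARP1 (vertical) and CDK2 (horizontal) in 2679 autosomal blocks of 1 Mb, with the 15 blocks past the limit for higher PARP1 in red and the 53 for lower PARP1 in dark blue. The cloud runs from upper left to lower right (Pearson -0.69), and chr1:1-1000000 and the block of chromosome 21 with the highest PARP1 ratio lie off it.

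Single windows of 10 kb differed more than blocks, but mostly alone. The ratio was 0.848 at the 25th and 1.19 at the 75th percentile, and 0.526 at the 1st and 2.03 at the 99th. A window was called where the ratio was at least 2, or 0.5 or less, and an exact binomial test on its counts passed a Benjamini-Hochberg limit of 0.05, a call that compares libraries and not conditions. At 30 min 2823 windows were higher (1.07%) and 1736 were lower (0.659%), together 4559 (1.73%). Of the higher windows 142 (5.03%) lay next to another called higher, and of the lower windows 96 (5.53%) lay next to another called lower. The shares that scattered windows would give were not computed, so these values do not show whether calls cluster. Runs of 3 occurred 4 times among the higher and 2 times among the lower windows, and none was longer. The run with the most reads, chr7:128100001-128130000, had 192 reads at 30 min and 70 at 5 min, a ratio of 2.53.

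Calls were concentrated in shallow windows. In the tenth of windows with the fewest PARP1 reads at 0 min, a library outside the comparison, 1073 windows were higher (4.07%) and 893 lower (3.39%). In the tenth with the most reads, 22 were higher (0.0835%) and 1 was lower (0.00379%). The opposition to CDK2 was faint at this scale. The CDK2 ratio was above 1 in 46.4% of the higher and 53.2% of the lower windows, against 51% of all windows compared. In the higher windows the median was 175 reads at 30 min, 71 at 5 min and 130 without hormone, and after scaling 0 min lay nearer to 30 min than to 5 min in 83.1% of them, against 57.1% of all windows. In the lower windows, with medians of 85 reads at 30 min against 175 at 5 min, and of 109 without hormone, this share was 51.3%. A window called higher was thus more often low at 5 min than high at 30 min, relative to 0 min. The call itself used the counts at 5 and 30 min, and the 5 min library had the higher dispersion (11.4 against 8.62). How far these shares follow from that was not tested.

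The called windows with the most extreme intervals were of this shallow kind. The foremost higher one, chr14:25230001-25240000, had 53 reads at 30 min and 2 at 5 min, with 36 at 0 min. The window chr7:152520001-152530000 had 27 reads at 30 min and 0 at 5 min, which is at least 8.30-fold higher with a floor of 3 counts per library, and 8 reads at 0 min. In the first the count at 5 min stood apart from the others, and in the second the count at 0 min lay between those at 5 and 30 min. A deeper one, chr18:5400001-5410000, had 163 reads at 30 min and 25 at 5 min, a ratio of 6.01 (exact 95% interval 3.93–9.56), with 162 at 0 min. Similarly chr1:2750001-2760000 had 175 reads at 30 min and 28 at 5 min, a ratio of 5.76 (3.85–8.92), with 134 at 0 min.

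Among the lower windows, chr10:31730001-31740000 had 6 reads at 30 min and 63 at 5 min, a ratio of 0.0878 (0.0311–0.202), with 38 at 0 min. In chr6:101510001-101520000 there were 28 reads at 30 min and 154 at 5 min, a ratio of 0.168 (0.108–0.252), with 50 at 0 min, so here 5 min stood above both other times. On chromosome 10 a higher and a lower window lay close together. The first, chr10:110890001-110900000, had 90 reads at 30 min and 10 at 5 min, and the second, chr10:110800001-110810000, had 20 reads at 30 min and 90 at 5 min. The named windows were chosen for extreme ratios, which by itself sets their flanks nearer to 1 than the windows. Summed over 20 windows on each side, the ratio of the flanks ran from 0.892 to 1.12. This ratio was 0.956 for the window of chromosome 18 and 1.11 for that of chromosome 6, both against the direction of the window. Other flanks went the same way as their window, such as 0.911 beside the lower window chr7:72710001-72720000 and 1.03 beside the higher window chr14:25230001-25240000.

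After both counts were divided by the dispersion of the pair, 6.62, a single window was still called, 0.000379% of those compared. It was chr12:20700001-20710000, with 1126 PARP1 reads at 30 min and 488 at 5 min, a ratio of 2.13 (widened 95% interval 1.6–2.82), and with 448 reads at 0 min. The level was 8.03 RPM at 0 min, 8.34 at 5 min and 17.7 at 30 min, so the libraries at 0 and 5 min were close and that at 30 min stood apart. The 40 windows within 200 kb held between 73 and 359 PARP1 reads at 30 min and between 78 and 343 at 5 min. The window stood 1.87 times above the median of its flanks at 0 min, 2.14 times at 5 min and 4.24 times at 30 min. CDK2 also stood above its flanks there, 1.73 times at 0 min, 2.5 times at 5 min and 3.16 times at 30 min. With 425 CDK2 reads at 30 min and 621 at 5 min, however, its depth-scaled ratio was 0.986. The window thus stood above its flanks in every library of both antibodies. Whether duplicates or reads with several matches contribute to it was not tested.

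**Figure D5:**
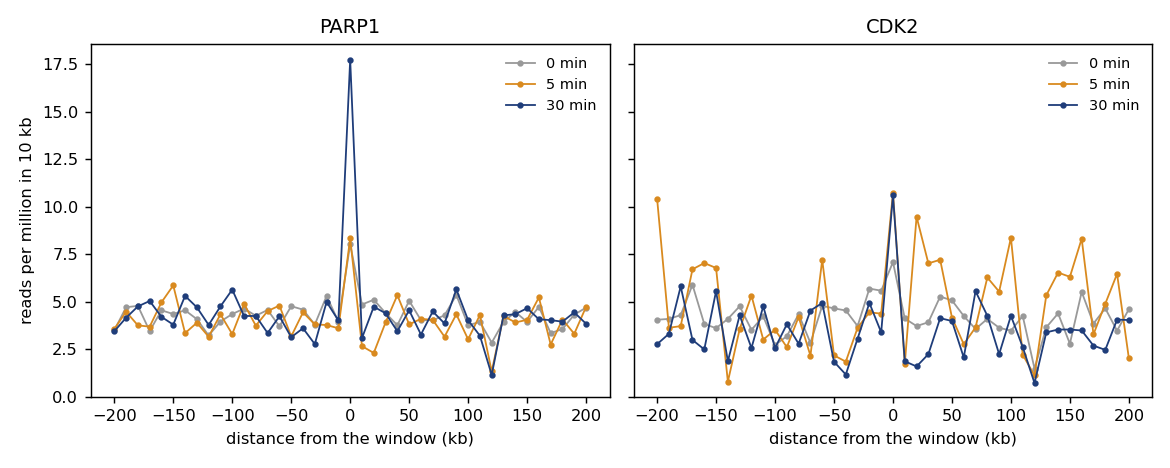
RPM in 10 kb windows within 200 kb of the window of chromosome 12 at 0, 5 and 30 min, for PARP1 (left) and CDK2 (right), with 1 library per line. PARP1 at 30 min reaches 17.7 in the central window, while its neighbours stay near the level of the other times.

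Among segments of 100 kb, 2 were at least 1.5-fold higher at 30 min with the widened interval above 1 (0.00763%), and 0 were as far lower (0%). Both rested on a single window, and whether duplicates or reads with several matches contribute was not tested. The segment chr21:9800001-9900000 had 13107 reads at 30 min and 7727 at 5 min, a ratio of 1.56 (1.43–1.71), with 79.1% of the reads at 30 min in 1 window. In chr1:91800001-91900000 there were 4164 reads at 30 min and 2556 at 5 min, a ratio of 1.5 (1.28–1.76), with 68.3% in 1 window. A broader gain was seen in chr8:116600001-116700000, inside the higher block of that chromosome. It had 4956 reads at 30 min and 3483 at 5 min, a ratio of 1.31 (1.14–1.51), and no window held more than 10.9% of the reads. Segments with the lowest upper bounds included chr1:9000001-9100000, with 0.712 (0.571–0.889), and chr19:7900001-8000000, with 0.700 (0.551–0.889).

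The windows with the most reads, several of which lie beside centromeres or chromosome ends, differed in both directions. The window chr21:9820001-9830000 had 10364 PARP1 reads at 30 min against 5294 at 5 min, and 3465 at 0 min. Its ratio of 30 to 5 min was 1.80 (widened 95% interval 1.66–1.97) and that of CDK2 was 2.77, so both antibodies had a higher share there at 30 min. The window chr19:27730001-27740000 had 18755 PARP1 reads at 30 min and 15264 at 5 min, a ratio of 1.13 (1.07–1.2). Others were lower. The window chr10:42380001-42390000 had 15340 reads at 30 min and 16070 at 5 min, a ratio of 0.880 (0.831–0.932), and chr18:100001-110000 had 0.896 (0.851–0.943). The deepest of all, chr1:121480001-121490000, had 51747 reads at 30 min and 46827 at 5 min, a ratio of 1.02 (0.986–1.05).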

How the data were processed

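The authors deposited whole-number read counts, without normalization, in 10 kb windows of chromosomes 1 to 22 and X, each library in its own column. The aligner was Bowtie 1.0.0 and the genome hg19, per the submitters' processing notes. The treatment of duplicates and of reads with several matches, both of which can inflate single windows, was not found in the labels. Each library was scaled by its total (40097131 to 63448449 reads). Exact binomial tests were adjusted over all 278395 windows with a mean of at least 10, chromosome X included, and autosomes are reported. Dispersion is the robust variance between neighbouring windows over its Poisson value, and for the pair that around the ratio of 20 windows on each side. Intervals cover counting error only. Blocks needed a mean of 5000 reads and segments 500.

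Members, regions and named places were chosen with earlier results of these data known. Windows were named where the exact interval bound lay farthest from 1, at most 1 per 100 kb, up to 10 a direction, and blocks and segments by the widened bound. Windows of highest depth and chromosome ends were chosen after their values were seen. The gene table had another build than the counts, so no window was tied to a gene, planned gene lists were not evaluated and no sequence is printed. Alternatives were TMM (edgeR 4.0.16) and median-of-ratios (DESeq2 1.42.0) factors, used for scaling only, scaling on windows of low mean, other count minimums, fold limits and block sizes, thinning, medians and leaving out the deepest windows. Python 3.11.15, numpy 2.4.6, scipy 1.17.1, pandas 2.3.3, matplotlib 3.10.9 and R 4.3.3 were used.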

Additional observations from a re-analysis of the deposited data

Results flagged for a closer look

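PARP1 and CDK2 differed in the direction of their change from 5 to 30 min on 14 autosomes, where both widened intervals left out 1 on opposite sides. The PARP1 ratio was below 1 and that of CDK2 above 1 on chromosomes 19 (PARP1 0.951), 22 (0.954), 17 (0.972), 16 (0.972), 20 (0.973), 9 (0.990), 10 (0.991) and 11 (0.994). The PARP1 ratio was above 1 and that of CDK2 below 1 on chromosomes 8 (PARP1 1.01), 6 (1.01), 3 (1.01), 5 (1.01), 4 (1.02) and 13 (1.02). Under scaling on the windows of lowest mean 7 autosomes showed this, and 13 under TMM. Each value rests on 1 library a side, and the difference between the antibodies was not tested.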

How the results depend on the processing

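No paired analysis was possible because each antibody and time had 1 library. Window calls depended on the limits. As shares of the windows compared, a fold limit of 1.5 gave 6.71% higher and 5.51% lower, a limit of 3 gave 0.141% higher and 0.0626% lower, and counts divided by the dispersion gave 0.000379% higher and 0% lower, so 1 window was called at this depth. Thinning and other count minimums kept both counts within 1.5 times. Blocks past the limit on the higher side numbered 8 under TMM, 8 under median-of-ratios and 7 under scaling on the windows of lowest mean. Blocks of 500 kb gave 98 higher and 149 lower, and blocks of 2 Mb gave 1 higher and 15 lower. The direction reversed in the block of chromosome 21 with the highest ratio, at 0.964 without the 1% of windows of highest mean and 0.953 without its 2 highest, and in chr19:27000001-28000000, at 0.993 and 0.971. Leaving out the 2 highest windows of a block was chosen after seeing the data. So were the counts of blocks past the limit without the deepest windows, and the counts of autosomes under other scalings. With the windows of lowest mean, PARP1 and CDK2 lay on opposite sides of 1 on 11 autosomes, with both intervals leaving out 1 on 7, and the PARP1 interval lay above 1 on 2.

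Chromosome values near 1 depended on the scaling, which moved log2 ratios by -0.00628 (TMM), -0.00690 (median-of-ratios) and -0.00905 (windows of lowest mean). TMM gave 0.993 for chromosome 1, 1.01 for chromosome 3 and 1.01 for chromosome 5. Median-of-ratios gave 0.993 for chromosome 1, 0.997 for 2, 1.01 for 3, 1.01 for 5, 0.998 for 7, 1.00 for 8 and 0.998 for 12. Windows of lowest mean gave 0.991 for chromosome 1, 0.996 for 2, 1.00 for 3, 1.01 for 4, 1.00 for 5, 1.00 for 6, 0.997 for 7, 1.00 for 8, 0.984 for 9, 0.985 for 10, 0.988 for 11, 0.996 for 12, 0.998 for 14 and 0.965 for 17. The median of window ratios gave 1.01 for chromosome 2, 1.03 for 4, 1.02 for 5, 1.01 for 7, 0.999 for 9 and 1.01 for 12. Over all alternatives run, chromosomes 1, 2, 7, 12, 14, 18 and 21 crossed 1 at least once. Chromosomes 19, 22, 17, 16, 20, 4 and 13 crossed it under no alternative run. All 37 regions stayed within their widened intervals under the 5 alternatives run on them.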
